A study of Mus musculus with 17 samples.

Results

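The β-crystallin genes of the mouse are Cryba1, Cryba2, Cryba4, Crybb1, Crybb2 and Crybb3, and these 6 genes were taken by name from the 21938 protein-coding genes of the annotation. For each gene, the regions enriched for histone H3.3 (islands) that overlapped the gene or the 5 kb on either side of it were examined in newborn lens epithelium and lens fibers. H3.3 islands had been called from chromatin immunoprecipitation followed by sequencing (ChIP-seq) in 4 libraries, 2 from lens epithelium and 2 from lens fibers. Every library was made from pooled lenses of CD1 mice, an outbred stock, labelled postnatal day 1 (P0.5 in the protocol) and microdissected into epithelium and fibers, with 150 lenses per sample according to the labels. No treatment is labelled, and a compartment is a dissected tissue and not a sorted cell type.

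β-Crystallins are structural proteins that assemble into oligomers and fill the lens fiber cytoplasm, where they contribute to the refractive index and transparency of the lens. Acidic members (βA) and basic members (βB) share a fold built of Greek key motifs, and mutations in several of them cause cataract. Fibers arise from the single layer of epithelium on the anterior surface of the lens, leave the cell cycle, elongate and accumulate crystallins. Histone H3.3 is a variant of H3 that can be placed into nucleosomes outside DNA replication, and it is found at promoters and along transcribed genes.

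The 6 genes lie at 4 loci in the GRCm38 (mm10) assembly. Cryba4 (ENSMUSG00000066975.12) and Crybb1 (ENSMUSG00000029343.17) are neighbours on chromosome 5, Cryba4 from 112246493 to 112252518 on the minus strand and Crybb1 from 112255815 to 112269585 on the plus strand, so that they are transcribed away from each other with 3296 bp between their starts. Crybb2 (ENSMUSG00000042240.14; 113058258 to 113070117) and Crybb3 (ENSMUSG00000029352.14; 113075839 to 113081584) follow on the same chromosome, both on the minus strand, with 5721 bp between them. Cryba1 (ENSMUSG00000000724.10), which encodes βA3/A1-crystallin, lies on chromosome 11 from 77718615 to 77725283 on the minus strand. Cryba2 (ENSMUSG00000006546.3) lies on chromosome 1 from 74889934 to 74893143 on the minus strand and is the shortest of the 6 genes at 3210 bp. The longest is Crybb1 at 13771 bp. The longest coding transcript has 5 exons in Cryba2, 7 in Crybb2 and 6 in the other members. Genes at the same locus share islands, so the 6 genes are not 6 independent measurements.

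Because the compartments are compared around the gene starts, the 160 bases before each start are shown, from RefSeq on GRCm38.p6, where all 6 genes had an entry. The RefSeq start lies a few bases upstream of the GENCODE start at Cryba1 and a few bases downstream of it at Crybb1, and the starts coincide at the other members. They are written 5′ to 3′ in the direction of transcription, and capitals mark matches to TATAA, the core of the TATA box, and to TGCTGA, a half-site recognised by Maf proteins, or to their reverse complements TTATA and TCAGCA.
Cryba1: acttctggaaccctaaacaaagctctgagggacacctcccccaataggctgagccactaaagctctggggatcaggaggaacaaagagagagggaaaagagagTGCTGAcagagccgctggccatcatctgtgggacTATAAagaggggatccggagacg
Cryba2: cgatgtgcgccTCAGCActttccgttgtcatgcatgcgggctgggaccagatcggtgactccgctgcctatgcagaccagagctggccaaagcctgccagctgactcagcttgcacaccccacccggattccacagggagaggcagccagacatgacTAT
Cryba4: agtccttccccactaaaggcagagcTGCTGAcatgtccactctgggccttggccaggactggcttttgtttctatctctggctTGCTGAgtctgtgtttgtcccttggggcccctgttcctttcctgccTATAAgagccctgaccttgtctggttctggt
Crybb1: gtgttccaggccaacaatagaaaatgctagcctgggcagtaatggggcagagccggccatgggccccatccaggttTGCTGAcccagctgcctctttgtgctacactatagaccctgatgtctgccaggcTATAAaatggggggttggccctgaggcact
Crybb2: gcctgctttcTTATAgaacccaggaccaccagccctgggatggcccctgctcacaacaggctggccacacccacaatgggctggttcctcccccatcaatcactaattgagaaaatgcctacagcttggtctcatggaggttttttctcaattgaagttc
Crybb3: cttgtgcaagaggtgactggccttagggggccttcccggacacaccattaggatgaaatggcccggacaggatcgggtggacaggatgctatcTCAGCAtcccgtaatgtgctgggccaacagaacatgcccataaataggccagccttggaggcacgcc
TATAA began 23 bases before the start in Cryba1, 31 in Cryba4 and 30 in Crybb1. In Cryba2 the match began 3 bases before the start, so that its last bases fall outside the stretch shown, and in Crybb2 the match was on the opposite strand with its first base 150 bases before the start. Crybb3 had no match in these letters. Counted on both strands over RefSeq promoter windows of 300 bases, TATAA was present in 5 of the 6 members and in 24.9% of 32851 promoters. TGCTGA was also present in 5 of the 6, against 19.5% of all promoters. Cryba4 held 3 copies of it, at 182, 135 and 77 bases before the start, the first of which lies upstream of the stretch shown, and Crybb2 held none. No match to one motif overlapped a match to the other. These are letter matches, chosen with the sequences in hand, and not measured binding sites.

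An island is a stretch of 200-bp windows, joined over gaps of up to 600 bp, in which the read count exceeds the level set by the caller. Its density is the number of reads divided by its length. The epithelium libraries held 10389 and 14434 islands with 1331369 and 1430373 reads in them, and the fiber libraries held 27059 and 35940 islands with 5041885 and 5359085 reads. Islands covered 45.4 and 48.9 Mb of the genome in epithelium and 178 and 188 Mb in fibers. The median density was nevertheless between 27.4 and 28.3 reads per kb in all 4 libraries. The total sequencing depth is unknown, because the tables hold reads within islands alone, and a larger number of reads and islands cannot be told apart from the compartment. For this reason counts and medians over the members are set beside the same over all protein-coding genes. With 2 libraries against 2, the exact two-sided permutation test cannot give a p below 0.333, so that a p of 0.333 marks groups that do not overlap and no difference could reach the usual threshold of significance.

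In fibers, H3.3 islands blanketed the β-crystallin genes. The body of every member was covered from end to end in both fiber libraries (6 of 6), as were the bodies of 4.06% of all protein-coding genes. With 5 kb added on each side, Cryba1, Cryba4, Crybb1 and Crybb3 were still covered in full in both fiber libraries, which was the case for 0.356% of all genes. Full cover takes a longer stretch of islands in a longer gene. These backgrounds hold genes of every length and were not matched to the members by length. In epithelium, an island was present in the body of 4 of the 6 genes in replicate 1 (background 25.8%) and of 6 in replicate 2 (background 30.3%). In fibers the corresponding background was 50.8% in replicate 1 and 56.7% in replicate 2. In the gene with its flanks, both fiber libraries lay above both epithelium libraries in covered share for 6 of 6 members. The background for that pattern was 45% of all genes, and 0.67% of genes showed the opposite pattern. Since that pattern was common, the size of the difference is set beside it. The median difference between fibers and epithelium was 51.2 percentage points over the members, against 4.72 over all genes and 15.95 over the 14147 genes with an island in at least 1 library.

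**Figure D1:**
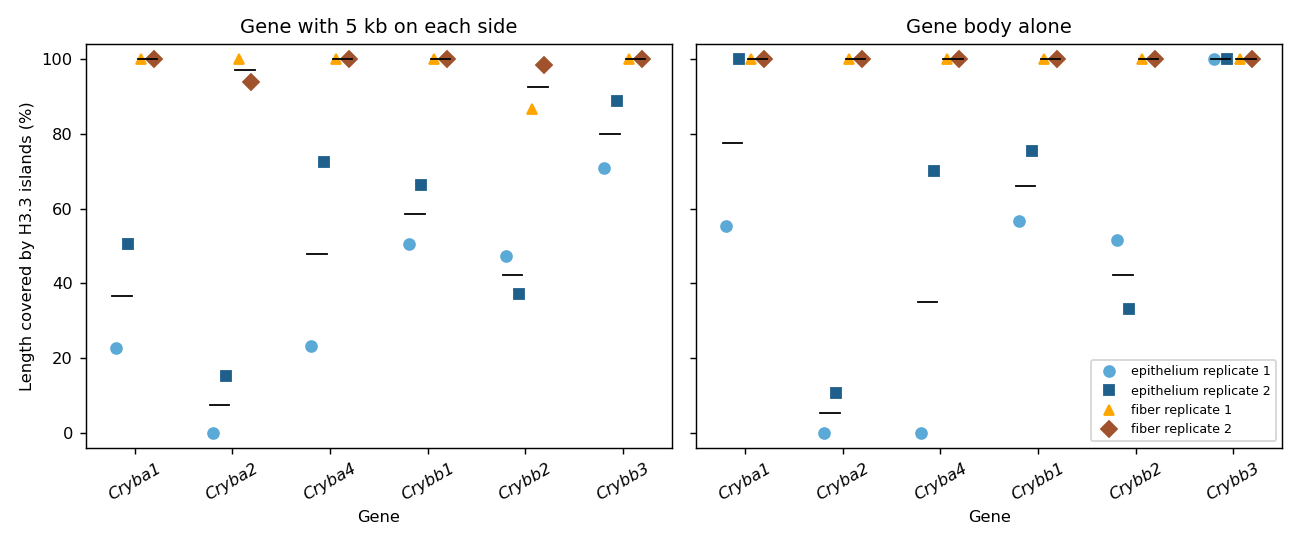
Percentage of each β-crystallin gene covered by H3.3 islands, with 5 kb on each side (left) and in the gene body alone (right). Points are the 4 libraries and short black lines are the means of the 2 libraries of a compartment. All fiber points of the gene bodies stand at 100%, whereas epithelium points range from 0% to 100%, and Crybb3 is at 100% in all 4 libraries.

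Cryba2, which encodes an acidic β-crystallin, had the largest difference of the 6 genes in cover of the gene with its flanks. With its flanks it was covered by 0% and 15.1% in epithelium replicates 1 and 2 and by 100% and 93.9% in fiber replicates 1 and 2. The means were 7.57% ± 10.7 in epithelium and 97.0% ± 4.28 in fibers (SD, n = 2 each), a difference of 89.4 percentage points (exact permutation p = 0.333). No island of epithelium replicate 1 touched this window. In epithelium replicate 2 a single island of 2000 bp with 67 reads lay across the start, from 1657 bp upstream to 343 bp into the gene, and 10.7% of the gene body was covered. In fiber replicate 1, 1 island of 20000 bp with 760 reads covered the gene and both flanks. In fiber replicate 2 the same stretch was divided into an island of 12600 bp with 487 reads over the gene and an island of 4400 bp with 153 reads further downstream. The upper edges of the fiber islands, upstream of the gene, fell at the same 200-bp window in both replicates.

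Cryba1 was covered with its flanks by 22.8% and 50.4% in epithelium and by 100% in both fiber libraries. The mean in epithelium was 36.6% ± 19.5 (SD, n = 2), which is 63.4 percentage points below fibers (exact permutation p = 0.333). The groups overlapped in the gene body, which was covered by 55.2% and 100% in epithelium. In both epithelium libraries the island over Cryba1 included its start. In replicate 1 the island was 3800 bp long with 112 reads and ran from 117 bp upstream of the start to 3683 bp downstream of it. In replicate 2 it was 8400 bp long with 214 reads and ran from 1517 bp upstream to 6883 bp downstream, just past the end of the gene. The part of the body before its midpoint was covered in full in all 4 libraries, whereas the part after the midpoint was covered by 10.5% and 100% in epithelium. The downstream 5 kb were covered by 0% and 4.28% in epithelium and in full in fibers. The fiber islands were 26600 and 26400 bp long with 1075 and 905 reads, and their edges differed between replicates by 800 and 600 bp.

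Cryba4 was the member whose epithelium replicates differed most in cover of the gene with its flanks. With its flanks it was covered by 23.2% in replicate 1 and 72.5% in replicate 2, a mean of 47.9% ± 34.9 (SD, n = 2), and by 100% in both fiber libraries (difference 52.1 percentage points, exact permutation p = 0.333). Its body held no island in epithelium replicate 1 and was covered by 70.1% in replicate 2. The replicate 2 islands were one of 3800 bp with 98 reads, which began 82 bp upstream of the start, and one of 5800 bp with 159 reads over the 3′ end and the sequence beyond it. Without epithelium replicate 1 the difference for this gene was 27.5 percentage points, and without replicate 2 it was 76.8.

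Crybb1, the divergent partner of Cryba4, was covered with its flanks by 50.5% and 66.4% in epithelium (mean 58.4% ± 11.3, SD, n = 2) and by 100% in both fiber libraries, a difference of 41.6 percentage points (exact permutation p = 0.333). Both epithelium replicates carried an island over its start and a second one over its 3′ part. The island over the start was 4200 bp long with 129 reads in replicate 1 and 5400 bp long with 154 reads in replicate 2. The 3′ island was 5600 bp long in both replicates, with 149 and 147 reads, and its near edges lay 7986 and 8186 bp from the start. After the midpoint of the gene, 81.3% and 81.1% of the body was covered, against 31.8% and 69.5% before it. A further island of 2200 bp in replicate 1 and 3000 bp in replicate 2 lay downstream of the gene. The stretch between the starts of Cryba4 and Crybb1 (112252519 to 112255814 on chromosome 5) was covered by 61.1% and 21.1% in epithelium and in full in both fiber libraries.

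In fibers the Cryba4 and Crybb1 locus lay within 1 island per library. This island was 53200 bp long with 2687 reads in replicate 1 and 51400 bp long with 2415 reads in replicate 2. It ranked 33rd by length among the 27059 islands of its library in replicate 1 and 35th among the 35940 in replicate 2. At 50.5 and 47.0 reads per kb its density exceeded that of 99.7% and 99.4% of islands called alongside it. Its lower edge fell in the same 200-bp window in both replicates, more than 10 kb past the 3′ end of Cryba4, and its upper edge differed by 1800 bp.

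Crybb2 encodes βB2-crystallin, an abundant basic member that is mutated in the Philly mouse cataract. It was covered with its flanks by 47.2% and 37.1% in epithelium and by 86.5% and 98.4% in fibers. The means were 42.2% ± 7.12 and 92.5% ± 8.41 (SD, n = 2 each), a difference of 50.3 percentage points (exact permutation p = 0.333). The uncovered part in fibers lay downstream of the 3′ end, where 41.1% and 93.1% of 5 kb was covered, while the gene body was covered in full. In epithelium 51.6% and 33.0% of the body was covered. Both epithelium replicates had an island across the start, of 3600 bp with 120 reads and of 2800 bp with 90 reads. Each also had an island inside the gene, but these did not coincide. In replicate 1 it was 3800 bp long and began 5517 bp from the start, and in replicate 2 it was 1800 bp long and ended 4717 bp from the start.

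Crybb3, which encodes the basic βB3-crystallin, differed least between the compartments. With its flanks it was covered by 70.9% and 88.8% in epithelium (mean 79.8% ± 12.7, SD, n = 2) and by 100% in both fiber libraries, a difference of 20.2 percentage points (exact permutation p = 0.333), which was 11.2 without epithelium replicate 1. Its body was covered in full in all 4 libraries, as was its start with 1 kb on each side. In epithelium this rested on a single island of 10600 bp with 383 reads in replicate 1 and of 11600 bp with 430 reads in replicate 2. Its length exceeded that of 97.6% and 99.2% of islands in its library, and its density of 36.1 and 37.1 reads per kb exceeded that of 94.4% and 94.5%. It ran from 1216 and 1616 bp upstream of the Crybb3 start through the gene and into the sequence before Crybb2, where 86.0% of the 5721 bp between the genes was covered in each replicate. Both genes and the sequence between them lay in 1 island per library in fibers, of 41000 bp with 1809 reads (44.1 reads per kb) and of 51000 bp with 1950 reads (38.2 reads per kb).

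**Figure D2:**
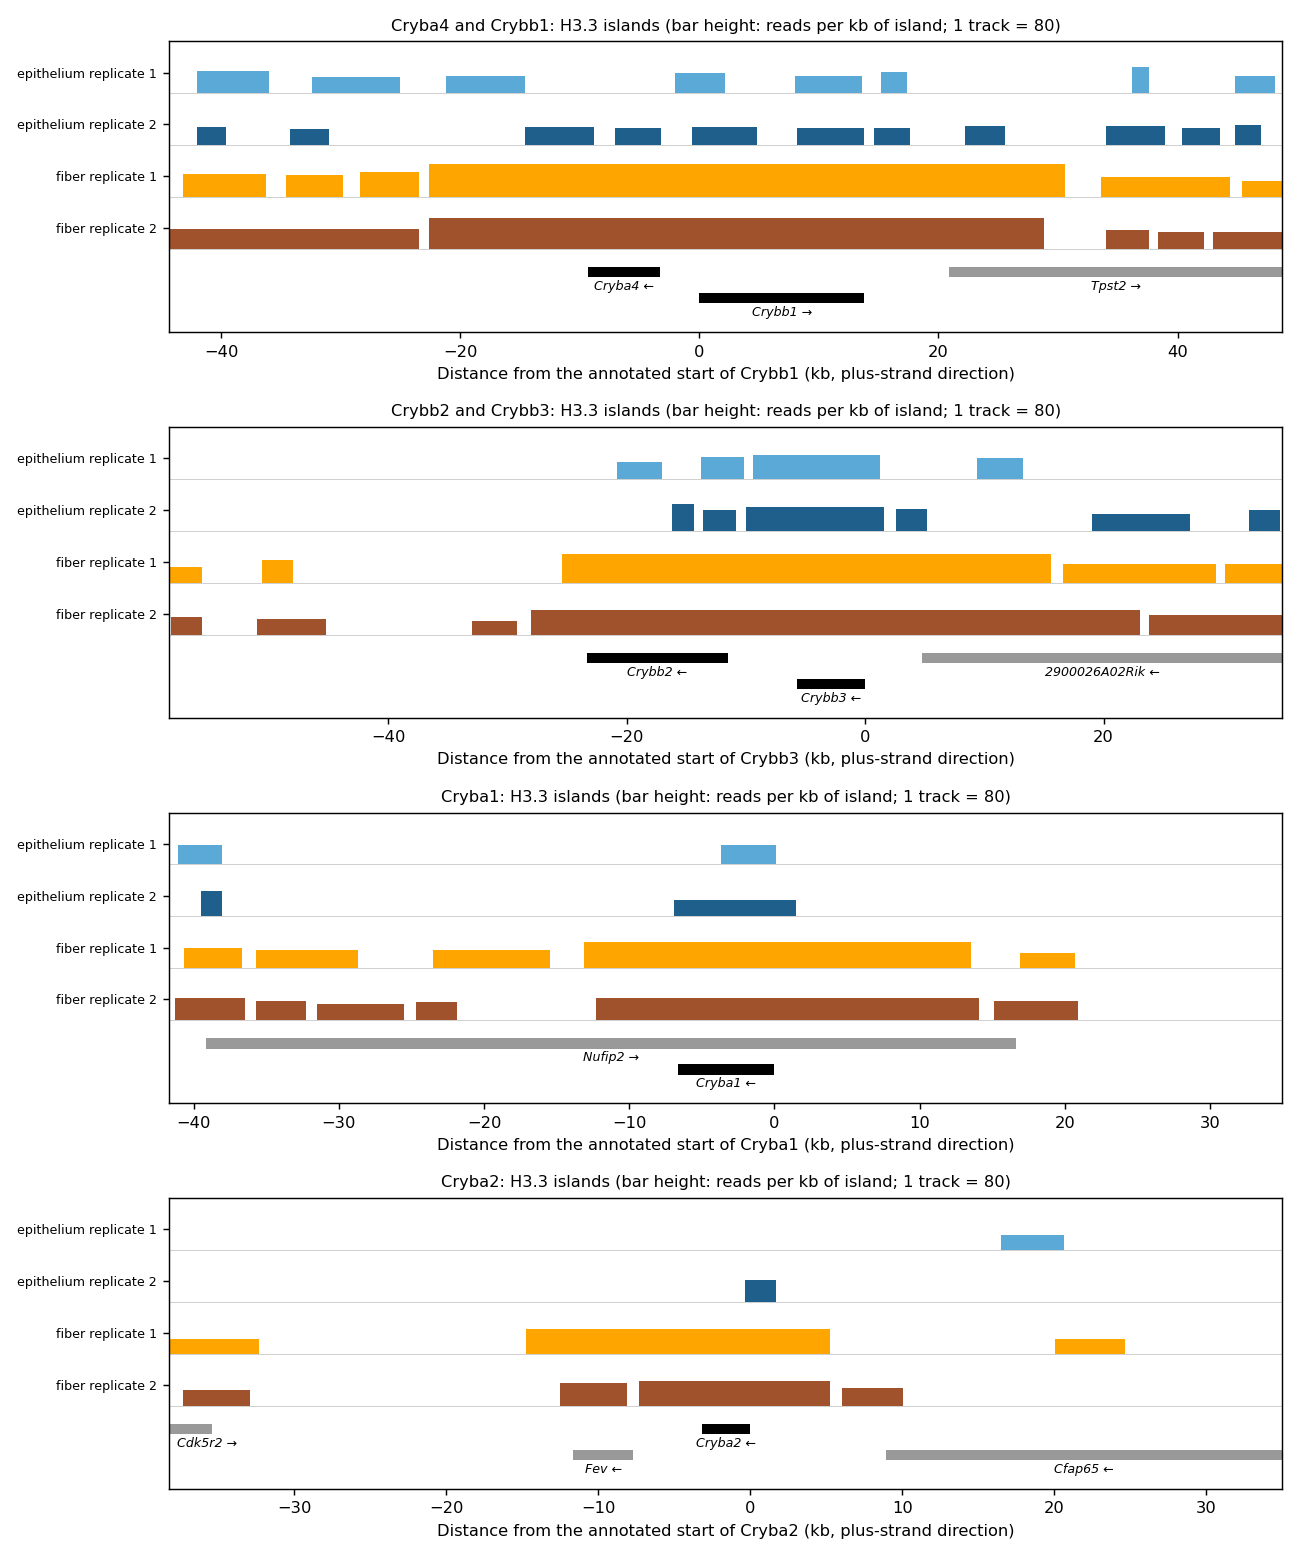
H3.3 islands at the 4 β-crystallin loci, drawn by distance in kb from a gene start, with 1 track per library. Bar width is island length and bar height is reads per kb of the island, black bars are β-crystallin genes, grey bars are other protein-coding genes, and arrows give the strand. At each locus the fiber islands over the crystallin genes, of 12.6 to 53.2 kb, are longer than the epithelium islands there, of which those over Crybb3 are the longest.

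Within the 4 loci and their flanks, every base covered by an island in either epithelium library was also covered in both fiber libraries. The fiber libraries left few or no bases uncovered there, so this was fixed or nearly fixed in advance and nothing is read from it. The fiber replicates shared 100% of the bases covered in either of them at Cryba1 and at the Cryba4 and Crybb1 locus, 92.1% at the Crybb2 and Crybb3 locus and 93.9% at Cryba2. The epithelium replicates shared 45.2%, 41.8%, 57.8% and 0% at the same loci. The loci were covered by 91.2% or more in each fiber library, which fixes a high shared share there, so the compartments cannot be compared in this measure.

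The gene starts were examined separately. The start with 1 kb on each side was covered in full in both fiber libraries for 6 of 6 members, against 18.6% of all genes. In epithelium replicates 1 and 2 it was covered by 55.9% and 100% at Cryba1, by 0% and 67.1% at Cryba2 and by 0% and 54.1% at Cryba4. It was covered by 100% and 80.7% at Crybb1, by 100% and 84.2% at Crybb2 and in full in both replicates at Crybb3. Both fiber libraries exceeded both epithelium libraries at Cryba2 and Cryba4 alone (2 of 6, background 23.7%). At the other members at least 1 epithelium library already covered the start in full, so that fibers could not exceed it, and nothing is read from this count. In the gene body the pattern held for 4 of 6 members, Cryba2, Cryba4, Crybb1 and Crybb2 (background 38.4%), and Cryba1 and Crybb3 were likewise at full cover in at least 1 epithelium library. The difference was smaller at the start than in the gene with flanks at 5 members and larger at Cryba4, with 72.9 percentage points against 52.1. Its median over the members was 15.9 percentage points at the starts, against 0 over all genes and 50 over the 11113 genes with an island at the start in at least 1 library.

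Reads in islands were counted over the same windows. Per kb of gene and flanks, Cryba1 had 6.72 and 12.8 island reads in epithelium and 40.4 and 34.3 in fibers. Cryba2 had 0 and 5.07 in epithelium and 38.0 and 36.3 in fibers. Cryba4 had 7.13 and 19.7 in epithelium and 50.5 and 47.0 in fibers. In all 6 members the lower fiber library lay above the higher epithelium library, a pattern with a background of 46.2%. Crybb1 had 14.7 and 18.0 reads per kb in epithelium and the same fiber values as Cryba4, since the 2 windows lie within the same island. Crybb2 had 14.8 and 13.5 in epithelium and 38.2 and 37.6 in fibers, and Crybb3 had 25.5 and 32.4 in epithelium and 44.1 and 38.2 in fibers. Ordered by the fiber mean among 21938 genes of every length, Crybb1 ranked 14th, Cryba4 15th, Crybb3 21st, Crybb2 62nd, Cryba1 72nd and Cryba2 74th. In epithelium the ranks were 546 for Crybb1, 904 for Cryba4, 56 for Crybb3, 797 for Crybb2, 1628 for Cryba1 and 5130 for Cryba2. Cryba4 and Crybb1 share 1 value, and the fiber means of Crybb2, Cryba1 and Cryba2 lay closer together than the 2 fiber replicates of Cryba1 or Cryba2. Crybb3 in fiber replicate 2 lay at the level of these 3 genes.

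The ratio of fiber to epithelium reads per kb was 14.6 at Cryba2, 3.82 at Cryba1, 3.64 at Cryba4, 2.98 at Crybb1, 2.67 at Crybb2 and 1.42 at Crybb3. The median ratio of 3.31 stood beside a median of 2.79 over the 8668 genes with islands in both compartments. Without epithelium replicate 1 the ratio at Cryba2 was 7.32, and without replicate 2 it had no value, since replicate 1 held 0 reads there. Without epithelium replicate 2 the ratio at Cryba4 was 6.84. These ratios carry the difference in reads between the libraries. After division by the total reads in islands of each library, the median ratio was 0.889 over the members and 0.746 over the 8668 genes, and the direction reversed at Crybb1, Crybb2 and Crybb3, with 0.795, 0.709 and 0.380. On that scale Cryba4 was at 0.984 and Cryba1 at 1.03, with no settled direction: with a library left out, Cryba4 lay between 0.683 (without epithelium replicate 1) and 1.75 (without epithelium replicate 2) and Cryba1 between 0.803 and 1.43 (without the same replicates). Cryba2 was at 4.04, at 2.02 without epithelium replicate 1, and had no value without replicate 2. Such a division assumes that both compartments hold the same amount of H3.3 in islands, and this was not tested. In bulk chromatin, fewer cells carrying H3.3 at a site and less H3.3 per cell cannot be told apart.

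The ratio of reads can be split into the covered length and the density of the covered part. Over the members, the median ratio of covered length was 2.14, against 2.74 over the 8668 genes, and the median ratio of density was 1.31, against 1.01. The length ratio has a ceiling at 4 members, whose windows were covered in full in both fiber libraries, so that it is set there by the epithelium share alone and cannot be weighed against that of other genes. By gene, density in fibers relative to epithelium was 1.74 at Cryba4 and at Crybb1, 1.40 at Cryba1, 1.22 at Crybb2 and 1.14 at Cryba2 and at Crybb3. In fibers the islands over the bodies of the 6 genes were both long and dense. They were longer than 95.2% or more of the islands of the same library. In replicate 1 they were denser than 96.8% or more, and in replicate 2 the island of Cryba1 was the least dense, at 34.3 reads per kb and above 88.5% of islands. In epithelium, apart from the long island of Crybb3, islands over the same bodies were 1800 to 8400 bp long, longer than between 9.65% and 97.5% of the islands of their library. Their density exceeded that of between 23.0% of islands, at Cryba1 in replicate 2, and 97.7%, at a Crybb2 island in replicate 2. The Cryba1 island of replicate 1 was denser than 61.9% of islands.

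**Figure D3:**
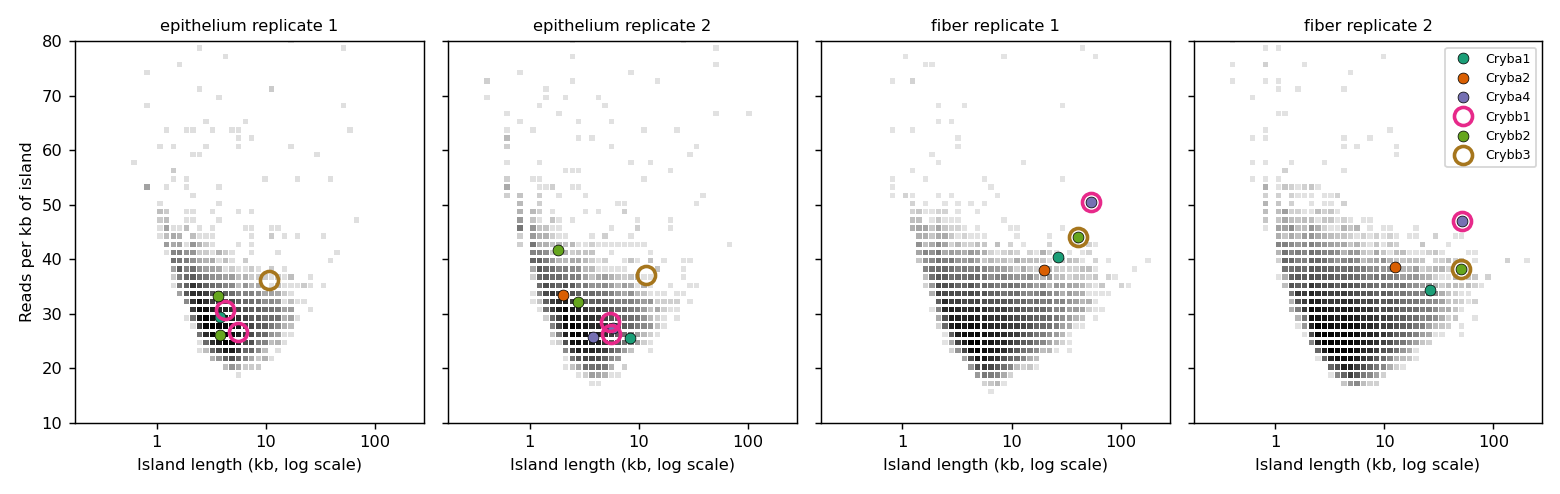
Island length (kb, log scale) against reads per kb of the island in each of the 4 libraries. Grey squares are bins holding 1 or more islands, darker with more islands, and circles are islands that overlap the body of a β-crystallin gene (open circles for Crybb1 and Crybb3). The vertical axis ends at 80 reads per kb, which leaves out 42, 69, 38 and 64 islands of the libraries from left to right. In fibers the circles lie at the long end, between 12.6 and 53.2 kb, and in epithelium most lie among the other islands.

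The neighbouring genes were described in the same way. Of 17 genes, 2 on each side of a locus and the gene overlapping Cryba1, 12 had both fiber libraries above both epithelium libraries in covered share of the body (background 38.4%). The islands over the β-crystallin bodies reached Tpst2, 2900026A02Rik and Nufip2 in both fiber libraries and Fev in replicate 1, and the other 13 genes carried separate islands or none. The fiber island of Cryba4 and Crybb1 ran into the start of Tpst2, a tyrosylprotein sulfotransferase gene 7105 bp away, whose body was covered by 22.2% and 35.7% in epithelium and by 88.7% and 67.4% in fibers. Tfip11, which encodes a splicing factor on the far side of Tpst2, was covered by 44.8% and 58.4% in epithelium and by 76.1% and 59.03% in fibers, so that the groups nearly touched. On the other side of the locus, Gm26897, a short gene at a distance of 511918 bp, was listed at 0% in all libraries, and the transcriptional regulator gene Mn1 beyond it was covered by 37.3% and 37.8% in epithelium and by 98.0% and 86.4% in fibers.

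At the Crybb2 and Crybb3 locus, the nearest genes on the 2 sides differed in distance and in cover. Upstream of Crybb3, 2900026A02Rik lies 4738 bp away and was covered by 24.3% and 35.7% in epithelium and by 82.7% and 81.9% in fibers. Beyond it on the same side, Tmem211 was covered by 12.1% and 0% in epithelium and by 18.6% and 29.9% in fibers. Downstream of Crybb2, Grk3, a G protein-coupled receptor kinase gene 42466 bp away, was covered by 1.71% and 0% in epithelium and by 3.61% and 11.0% in fibers. The unconventional myosin gene Myo18b beyond Grk3 was covered by 2.31% and 7.42% in epithelium and by 17.6% and 22.7% in fibers, a level like that of Tmem211.

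Nufip2, which encodes an RNA-binding protein, spans Cryba1 on the opposite strand in the longer of its 2 coding transcripts, and none of its exons falls within Cryba1 or the 5 kb on each side of it. The shorter transcript ends 5873 bp before Cryba1. ChIP-seq reads carry no strand of transcription, so islands inside Cryba1 cannot be assigned to it or to the longer Nufip2 transcript. The body of Nufip2 was covered by 8.69% and 16.9% in epithelium and by 79.0% and 76.7% in fibers. Outside Cryba1 and its flanks, Nufip2 was covered by 2.68% in both epithelium libraries and by 70.0% and 66.8% in fibers, and the part past Cryba1 was listed at 0% in epithelium. Myo18a, an unconventional myosin gene on one side, was covered by 45.1% and 46.3% in epithelium and by 87.6% and 70.6% in fibers, and Gm10277, which lies inside Myo18a on the opposite strand and shares its islands, by 100% and 84.9% in epithelium and by 100% in both fiber libraries. The kinase gene Taok1 on the other side was covered by 3.05% and 0% in epithelium and by 0% and 7.63% in fibers. Abhd15, which overlaps the far end of Taok1, was covered by 19.1% and 4.60% in epithelium and by 21.6% and 23.3% in fibers.

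Cryba2 lies 4514 bp from Fev, which encodes an ETS transcription factor known from serotonergic neurons. The body of Fev held no island in either epithelium library and was covered by 100% and 89.3% in fibers, in replicate 1 by the island of Cryba2 itself and in replicate 2 by the separate island of 4400 bp. Cdk5r2, an activator of the kinase Cdk5 beyond Fev, likewise held none in epithelium and was covered by 100% and 69.0% in fibers. On the other side of Cryba2 the pattern was different. The ciliary gene Cfap65 was covered by 12.5% and 0% in epithelium and by 13.7% and 3.37% in fibers, and the hedgehog ligand gene Ihh by 0% and 29.4% in epithelium and by 0% in both fiber libraries.

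**Figure D4:**
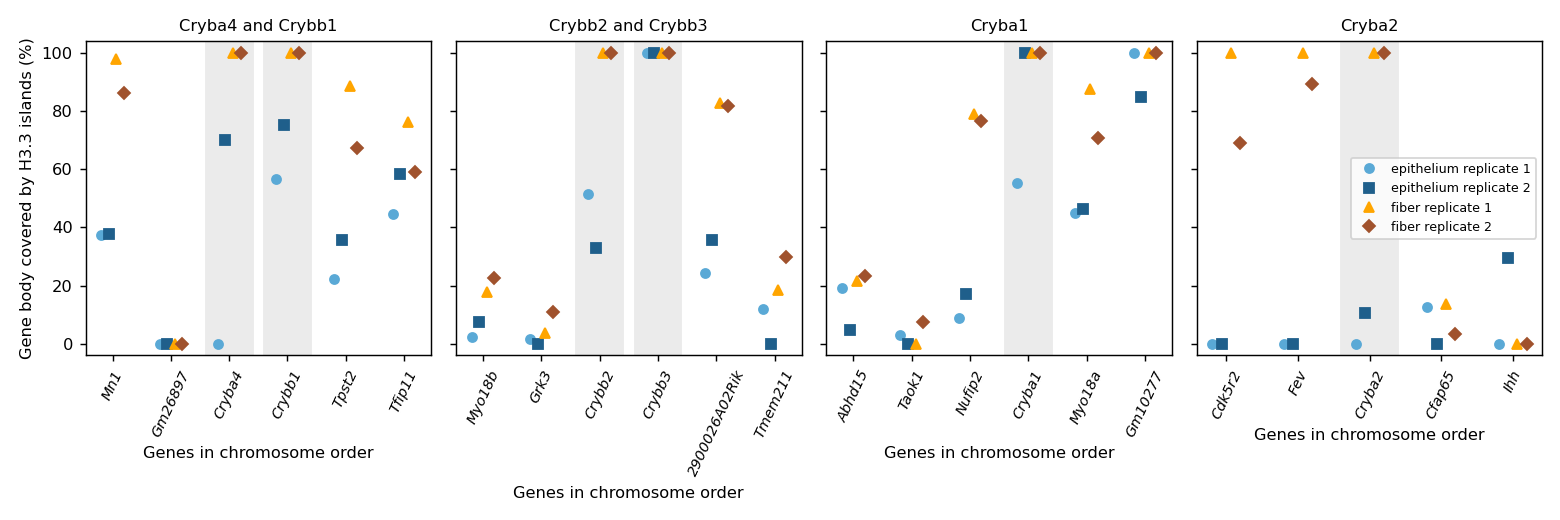
Percentage of the gene body covered by H3.3 islands for the β-crystallin genes (grey bands) and the neighbouring protein-coding genes at each of the 4 loci, in chromosome order. Points are the 4 libraries. Fev and Cdk5r2 stand at 0% in epithelium and at 69.0% or more in fibers, whereas Grk3 and Taok1, next to Crybb2 and Nufip2, stay at or below 11.0% in all libraries.

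The other 10 crystallin genes, 2 of the α class and 8 of the γ class, had the same direction, with 10 of 10 above in both fiber libraries (background 45%) and a median difference of 72.1 percentage points. In epithelium, Cryga, Crygb, Crygc, Crygd and Crygf were listed at 0% in both epithelium libraries with their flanks, and Cryge at 0% and 27.0%, while at least 1 epithelium library had an island near every β-crystallin. In fibers, Crygd was covered by 93.1% and 100%, Cryge by 100% and 86.9%, Crygc by 93.4% and 91.8%, Crygb by 81.0% and 66.1%, Cryga by 58.3% and 38.3% and Crygf by 73.9% and 18.7%. Crygs was covered by 15.9% and 8.54% in epithelium and by 100% and 91.6% in fibers, and Crygn by 16.5% and 18.8% and by 84.7% and 91.7%. Cryab, a small heat shock protein gene, was covered by 40.5% and 41.8% in epithelium and by 95.8% and 89.3% in fibers. Cryaa, its α-class partner, was widely covered in epithelium too, with 79.9% and 90.4% in epithelium and 100% in both fiber libraries. Cryaa ranked 16th of all genes in fiber reads per kb, between Cryba4 and Crybb3. Among the 10 genes, the window was covered in full in both fiber libraries at Cryaa alone, against 4 of the 6 β-crystallins. The difference between the classes was not tested.

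**Figure D5:**
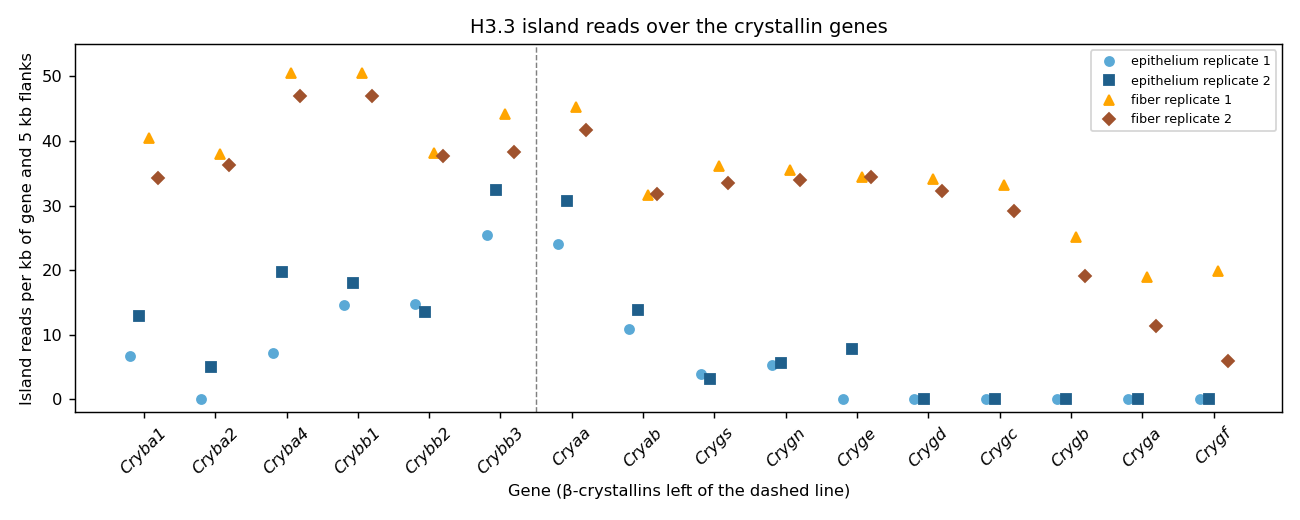
H3.3 island reads per kb of gene and 5 kb flanks for the 16 crystallin genes, with 1 point per library. β-Crystallins are left of the dashed line and α- and γ-crystallins right of it. In all 16 genes both fiber points lie above both epithelium points, and Crybb3 and Cryaa have the highest epithelium points.

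Genes whose 4 values of log2(reads per kb + 1) lay nearest to the mean of the members were Mip, at a Euclidean distance of 0.325, Carhsp1, which encodes an RNA-binding protein, at 0.386, the chromatin remodeler subunit gene Dpf1 at 0.450, the fibroblast growth factor receptor gene Fgfr3 at 0.526 and the transmembrane protein gene Crim1 at 0.531. Mip, which encodes the water channel aquaporin 0 of fibers, had 9.01 and 15.2 reads per kb in epithelium and 36.6 and 41.3 in fibers. The members themselves lay between 0.344 for Cryba1 and 3.41 for Cryba2 from their own mean, so that Cryba2, Crybb3, Crybb1 and Crybb2 were farther from it than these 5 genes. The likeness is a description over 4 libraries.

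The labels of the compartments were set beside known marker genes. Of 10 fiber markers, 9 had both fiber libraries above both epithelium libraries (background 45%), with a median difference of 57.5 percentage points against 4.72 over all genes. The membrane protein gene Lim2 was listed at 0% in both epithelium libraries and covered in full in both fiber libraries, and Lgsn had no island in any library. Of 8 epithelium markers, 4 had both fiber libraries above both epithelium libraries, close to the background of 45%, and 0 had the opposite pattern (background 0.67%), with a median difference of 9.03 percentage points. Among them, the difference was largest at the transcription factor gene Foxe3, with 0% and 60.7% in epithelium and 88.5% and 86.6% in fibers. It was lowest at the connexin gene Gja1, which was covered by 5.12% and 12.5% in epithelium and by 0% and 10.2% in fibers. Pax6 and Foxe3 stand in this list and also in the list of crystallin gene regulators.

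Markers of vascular, retina, cornea and skin, pigment and blood cells were set beside these. Both fiber libraries lay above both epithelium libraries in covered share for 2 of 5 vascular, 0 of 5 cornea and skin, 1 of 5 pigment cell and 1 of 5 blood and macrophage genes (background 45%). Among the retina genes the pattern held for 1 of 5. The endothelial genes Tek, Tie1 and Kdr, the keratin genes Krt12 and Krt14, the pigment genes Tyr, Tyrp1 and Mlana and the blood genes Ptprc, Adgre1 and Alas2 had no island in any library. Other genes of these lists did have islands. With its flanks, Cdh5 was covered by 0% and 6.43% in epithelium and by 8.32% and 9.83% in fibers. Aldh3a1 was covered by 13.7% and 0% in epithelium and by 9.88% and 15.3% in fibers. Krt5 and Dct were covered in fiber replicate 2 alone, by 19.0% and 4.85%. The summed reads over 5 vascular genes were 103 and 133 in epithelium and 486 and 375 in fibers, and over 5 cornea and skin genes 70.8 and 0 in epithelium and 168 and 149 in fibers. Over 5 pigment cell genes they were 0 in both epithelium libraries and 18.9 and 125 in fibers, and over 5 blood and macrophage genes 0 and 166 and then 344 and 261. Over 5 retina genes they were 404 and 89.3 in epithelium and 317 and 206 in fibers, so that the compartments overlapped. Over the 6 β-crystallins the sums were 1301 and 1829 in epithelium and 4715 and 4345 in fibers. Csf1r, a macrophage receptor gene, had the largest difference of the blood list, with 0% and 17.3% in epithelium and 33.1% and 25.5% in fibers. The largest differences of the vascular, cornea and skin, and pigment cell lists were at Pecam1, with 4.32% and 2.26% in epithelium and 12.6% and 7.52% in fibers, at Krt15, with 42.3% in fiber replicate 1 and no island elsewhere, and at Pmel, with no island in epithelium and 2.33% and 7.70% in fibers. The part of such cells in the β-crystallin differences was not tested.

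The number of islands was also held equal across the libraries. This does not make the covered length or the sequencing depth equal. When the densest 10389 islands were kept in every library, both fiber libraries remained above both epithelium libraries for 6 of 6 members, while the background fell from 45% to 15.6%. When the 10389 islands with the most reads were kept, the count was again 6 of 6, with a background of 21.4%. Full cover of the gene with its flanks held for the same count of 4 members in both cases, against 0.328% and 0.356% of all genes. Repeated sequence was scarce at these loci: between 0.35% and 1.65% of the 75-base stretches in the genes with their flanks occur more than once in the genome, the largest share at Crybb2.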

How the data were processed

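H3.3 ChIP-seq reads of 75 bases from 4 libraries were aligned by the authors to mm10 with BWA, and islands were called with SICER2, where the deposited names record 200 bp windows, 600 bp gaps and an FDR of 0.01. Whether the pooled input entered the calling is not given in the sources used here. The deposited values are counts of reads per island, not normalized, and were called per library. Labels and methods differ in the number of lenses and name the newborn stage differently. Bisulfite data and input were not analysed here.

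Islands were intersected with GENCODE vM21 genes on the same build (at least 1 bp shared), and reads were apportioned by overlapped length, which assumes an even spread within an island. Epithelium and fibers were compared by an exact two-sided permutation test over libraries. Without library totals no counting interval was computed. Members, gene lists and motifs were chosen with earlier results of these data known. The genes named were the members, the 2 nearest protein-coding genes on each side of a locus, all other crystallins, the extremes of each list and the 5 genes nearest in profile. The other list genes were named after their values were seen, and the summary of the retina markers is not reported here. Python 3.11.15, numpy 2.4.6, pandas 2.3.3, scipy 1.17.1 and matplotlib 3.10.9 were used. Tested on simulated data, cover was right in 2000 of 2000 windows and 60 of 60 planted genes were called. Alternatives were other windows, transcript models, island filters, joined islands, equal island numbers, scalings and each library left out.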

Additional observations from a re-analysis of the deposited data

How the results depend on the processing

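The count of 6 members with both fiber libraries above both epithelium libraries stayed at 4 to 6 under every other choice tried, apart from the start with 1 kb on each side, where it was 2. The median difference in covered share (51.2 percentage points) was 15.9 at the start and 78.2 with islands at or above the median density of their library, and from 41.6 to 63.2 with a library left out. The median ratio of reads per kb (3.31) was 2.87 in the gene body, 3.72 with 10 kb on each side, 1.80 at the start, 7.61 with islands at or above the median density and 3.94 with equal numbers of the densest islands. It was between 2.76 and 3.43 with a library left out, and it reversed to 0.889 when reads were divided by the total reads in islands. The causes were not tested. In epithelium replicate 2, 4 members in place of 6 had an island in the body when islands below the median density were dropped or when islands had to cover 50% of the body. With the replicate number as a block, the median difference was 51.2 percentage points and the exact sign-flip permutation test could not go below p = 0.5. The labels give a replicate number alone, so whether libraries of the same number came from the same lenses is unknown. The correlation across genes of the replicate differences of the 2 compartments was 0.00617. It cannot decide this, because it does not trace the lenses. The sequencing depth is unknown, so that an uncovered base is not evidence that H3.3 was absent.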

Other observations

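The 10 listed regulators of crystallin genes were more widely covered in both fiber libraries than in both epithelium libraries in 10 of 10 cases (background 45%), with a median difference of 52.4 percentage points, close to the 51.2 of the β-crystallins. Maf, a transcription factor that activates crystallin genes, had the largest difference, with 0% and 9.76% of the gene and flanks covered in epithelium and 94.9% and 94.8% in fibers. Pax6 had the smallest, with 79.7% and 79.5% in epithelium and 93.2% and 89.1% in fibers. Prox1, which is needed for fiber elongation, was covered by 17.9% and 27.6% in epithelium and by 98.7% and 100% in fibers.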
